A study of Mus musculus with 32 samples.

Results

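CHD4, the ATPase of the NuRD complex, was mapped by ChIP-seq in B3 cells at 0 h and at 1 h after nuclear entry of IKZF1 (Ikaros) was induced. The regions called in the 4 CHD4 libraries, 2 per time, were merged into 9702 regions. A region was gained when it was called in both 1 h libraries and in neither 0 h library, lost in the reverse case, and kept when called in all 4. By this rule 639 regions (6.59% of the 9702) were gained, 248 (2.56%) were lost and 1257 (13.0%) were kept. The others were called in other combinations. No call means that a region did not pass the peak caller's threshold in that library, and the lists hold no value for it.

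B3 is a mouse pre-B cell line, here transduced with a retroviral HA-tagged IKZF1 fused to the ligand-binding domain ERt2. Given 4-hydroxytamoxifen (4-OHT), the fusion protein is induced to enter the nucleus. All groups carried this construct. Cells at 0 h received no 4-OHT, and the others received 500 nM for 30 min, 1 h or 2 h. HA-IKZF1, CHD4 and H3K27ac were each mapped in 2 replicates per time, giving 24 peak lists, and the 8 input libraries were not analysed here. The HA-IKZF1 lists already held 7822 and 9527 peaks at 0 h, against 12447 and 14874 at 1 h. Whether the 0 h peaks reflect fusion protein in the nucleus before 4-OHT or background was not tested. Nothing in the sources says that the replicates were separate cultures, so the spread between them may be technical. All 8 B cell marker genes had an H3K27ac peak within 1 kb of a start site in both 0 h libraries, whereas all 5 myeloid markers and 4 of 5 T cell markers had none (Cd5 was the exception).

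NuRD joins a nucleosome remodeller, CHD4 or a paralogue, to the histone deacetylases HDAC1 and HDAC2, and has no sequence preference of its own. Transcription factors such as IKZF1, a zinc finger protein required for lymphoid development, bring it to DNA. H3K27ac marks active promoters and enhancers and is a substrate of NuRD's deacetylases. Comparing CHD4 at 1 h with 0 h asks where CHD4 sits once nuclear entry of IKZF1 has been induced.

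The sequences below are windows of the mm10 reference (plus strand, GRCm38) from regions that carry the main patterns: gained regions with IKZF1 already called at 0 h (Sde2) or called in more libraries at 1 h (Ppp1r12b, Cd22), gained and kept regions with no IKZF1 peak in any library (Ppp4r2, Mvb12b), and lost regions at which the IKZF1 fold was smaller at 1 h (Nedd9, Tnfrsf8), beside the kept region of highest rank (Rfwd3). Capitals mark GGAA, GGGA and their complements TTCC and TCCC, the core words of IKZF1 sites. Each window is centred on the highest IKZF1 summit (1 h replicate 1, or 0 h replicate 1 for lost regions), or on the middle of the region where there was none.
Sde2 (gained), chr1:180850688-180850788: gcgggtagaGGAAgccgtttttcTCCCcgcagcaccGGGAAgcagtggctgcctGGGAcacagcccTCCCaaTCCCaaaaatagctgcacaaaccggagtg
Ppp1r12b (gained), chr1:134778319-134778419: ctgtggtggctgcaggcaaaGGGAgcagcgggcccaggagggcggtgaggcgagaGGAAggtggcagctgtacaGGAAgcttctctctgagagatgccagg
Cd22 (gained), chr7:30879181-30879281: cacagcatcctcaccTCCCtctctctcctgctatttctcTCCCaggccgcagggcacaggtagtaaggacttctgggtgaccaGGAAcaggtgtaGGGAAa
Ppp4r2 (gained, no IKZF1 peak), chr6:100833198-100833298: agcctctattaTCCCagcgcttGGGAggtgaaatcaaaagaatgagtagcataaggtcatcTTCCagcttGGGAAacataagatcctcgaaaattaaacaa
Nedd9 (lost), chr13:41336484-41336584: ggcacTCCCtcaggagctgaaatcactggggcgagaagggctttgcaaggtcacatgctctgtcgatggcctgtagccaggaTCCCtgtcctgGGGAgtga
Tnfrsf8 (lost), chr4:145367520-145367620: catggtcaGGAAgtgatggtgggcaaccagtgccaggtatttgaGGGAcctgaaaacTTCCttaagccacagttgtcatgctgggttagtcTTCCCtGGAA
Rfwd3 (kept), chr8:111300485-111300585: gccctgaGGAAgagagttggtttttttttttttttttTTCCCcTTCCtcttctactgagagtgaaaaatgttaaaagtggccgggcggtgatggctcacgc
Mvb12b (kept, no IKZF1 peak), chr2:33934216-33934316: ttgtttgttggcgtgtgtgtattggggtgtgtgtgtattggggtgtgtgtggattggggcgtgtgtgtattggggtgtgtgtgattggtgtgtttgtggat
Counting overlapping words separately, the Sde2 window holds 7 core words and the Tnfrsf8 window 6, against 5 at Cd22 and at Ppp4r2, 4 at Rfwd3 and 3 at Ppp1r12b and Nedd9. The Mvb12b window is a tandem repeat and holds 0.

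The number of CHD4 peaks did not separate the times. The 0 h lists held 2488 and 6000 peaks and the 1 h lists held 5446 and 5027, so the 0 h libraries differed from each other more than the times did. The mean was 4244 ± 2483 at 0 h and 5237 ± 296 at 1 h (SD, n = 2 each, exact two-sided permutation p = 1, with 0.333 the smallest p that 2 against 2 allows).

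The gained class was close in size to a class that follows neither the time nor the replicate number. Beside the 639 gained regions, 627 were called in 0 h replicate 2 and 1 h replicate 1 only. Fewer, 489, were called in both replicate 2 libraries and in neither replicate 1 library. The reverse pairs, 0 h replicate 1 with 1 h replicate 2 and both replicate 1 libraries, held 48 and 82 regions, and a further 959 were missing from 0 h replicate 1 alone. The larger of these classes share the lack of a call in 0 h replicate 1, the shortest list. When each list was limited to the 2488 peaks of the shortest, 299 regions were gained and 324 lost, so the excess of gained over lost regions did not hold with lists of equal length. Without replicate 1, 2094 were gained and 3057 lost, and without replicate 2, 3622 were gained and 663 lost.

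**Figure D1:**
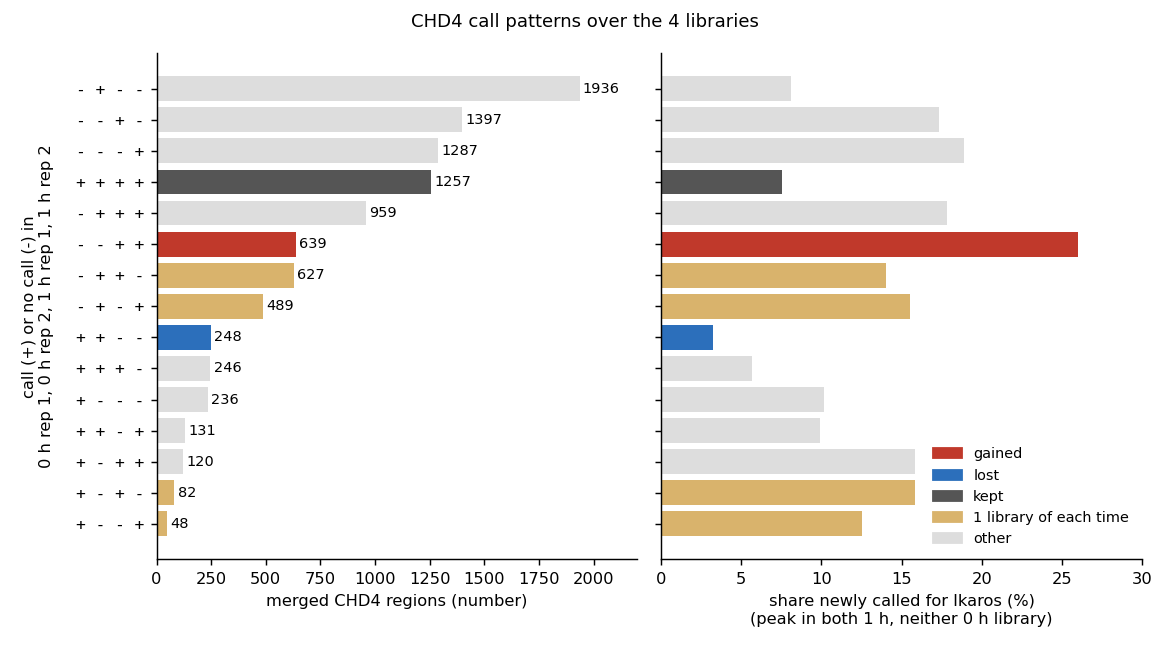
Number of merged CHD4 regions with each pattern of calls in the 4 libraries (left, bars) and the share of those regions newly called for IKZF1, with a peak in both 1 h and neither 0 h IKZF1 library (right, bars, %). The gained bar (639) is close in length to the bar of regions in 0 h replicate 2 and 1 h replicate 1 only (627), while its share newly called for IKZF1 is 26.0% against 14.0%.

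IKZF1 calls, which the rule did not use, were then compared across the classes. A new IKZF1 call, in both 1 h and in neither 0 h library, fell on 166 of the 639 gained regions (26.0%, Wilson 95% interval 22.7 to 29.5). The share was 7.56% of kept regions (6.22 to 9.15) and 3.23% of lost regions (1.64 to 6.24), beside 13.8% of all 9702 regions (13.1 to 14.5). The lost share rests on 8 regions, and it was 8.73% without replicate 1 and 7.69% without replicate 2. The kept share was 12.5% without replicate 1 and 12.8% in the central 500 bp of each region, and the gained share was 12.1% with a −log10 q of at least 3. With the deposited calls of all 4 CHD4 libraries the share was 15.5% (12.6 to 19.0) for regions in both replicate 2 libraries only and 14.0% (11.5 to 17.0) for 0 h replicate 2 with 1 h replicate 1. These intervals cover counting error over regions, which are not replicates. Under all 9 alternatives tried, the gained share stayed above the kept share, by 6.27 to 18.7 percentage points. Only regions without IKZF1 at 0 h could be newly called, and they were a larger part of gained than of kept regions. Among such regions the gained and kept shares were close, as given below.

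The reverse change, an IKZF1 peak in both 0 h and in neither 1 h library, was found at 22 of the 248 lost regions (8.87%, 5.93 to 13.1). It was found at 1 gained region (0.156%) and 1 kept region (0.0796%), and at 181 of all 9702 regions (1.87%). Regions called for CHD4 only in 0 h replicate 1 or only in 0 h replicate 2 came near the lost class, at 13 of 236 (5.51%) and 128 of 1936 (6.61%). The share at lost regions was 5.04% without replicate 1 and 5.43% without replicate 2, and 0 of 33 with a −log10 q of at least 3 (upper Wilson bound 10.4%). With lists limited to equal length it was 3.40%, against 0 of 299 at gained regions (upper Wilson bound 1.27%).

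Library by library, IKZF1 peaks were present at 41.0% and 46.0% of gained regions at 0 h (replicates 1 and 2), at 61.5% and 42.4% at 30 min, at 78.7% and 88.1% at 1 h and at 79.7% and 84.2% at 2 h. Both 1 h values lay above both 0 h values, and the 30 min values were 1 above and 1 within the range of the 0 h values. At kept regions the shares were 76.1% and 81.5% at 0 h and 92.8% and 95.1% at 1 h. At lost regions they were 76.6% and 82.7% at 0 h, 64.9% and 71.4% at 1 h and 56.9% and 62.9% at 2 h, the only one of the 3 classes in which both replicates went down. Over all 9702 regions the share rose by 21.7 and 20.7 points from 0 h to 1 h in replicates 1 and 2. It rose by 37.7 and 42.1 points at gained and by 16.6 and 13.7 at kept regions. Kept regions had higher shares at 0 h, which left less room for a rise. Among the regions with no IKZF1 peak at 0 h, 56.3% of 295 gained (50.6 to 61.8) and 54.6% of 174 kept regions (47.2 to 61.8) were newly called, against 21.6% of 37 lost regions (11.4 to 37.2). The share was 32.5% of all 4107 such regions (31.1 to 34.0) and 59.9% of the 317 called for CHD4 in both 1 h and 1 of the 0 h libraries (54.5 to 65.2).

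**Figure D2:**
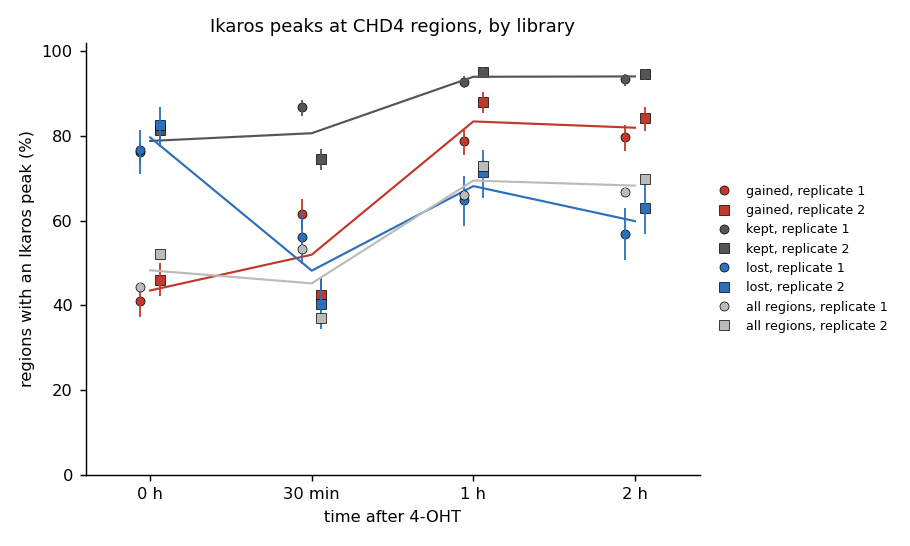
Share of CHD4 regions with an IKZF1 (Ikaros) peak (y axis, %) by time after 4-OHT (x axis), for gained, kept, lost and all merged regions. Circles and squares are replicates 1 and 2, vertical bars Wilson 95% intervals over regions, and lines join the means. Gained regions rise from 41.0% and 46.0% to 78.7% and 88.1% at 1 h, and lost regions go from 76.6% and 82.7% to 64.9% and 71.4%.

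Most gained regions had IKZF1 at 1 h, but not more often than kept ones. Both 1 h lists had a peak at 480 of 639 gained regions (75.1%, 71.6 to 78.3), at 91.2% of kept (89.6 to 92.7), at 53.6% of lost (47.4 to 59.7) and at 59.7% of all regions (58.8 to 60.7). In classes called in 1 library of each time this share ran from 56.25% to 72.4%. The highest was that of 0 h replicate 2 with 1 h replicate 1 only. Kept regions were wider, which gives more room for an overlap. Counted in the 500 bp at the centre of each region, the shares were 68.7% of gained and 76.9% of kept regions. With a −log10 q of at least 3 the order turned round, with 89.3% of 149 gained against 72.1% of 86 kept regions. At least 1 of the 1 h libraries had an IKZF1 peak at 91.7% of gained, 96.7% of kept and 79.2% of all regions, which left 53 gained regions with none at 1 h. None of the 8 IKZF1 libraries had a peak at 32 gained regions (5.01%, 3.57 to 6.98), beside 1.43% of kept and 11.6% of all regions.

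The IKZF1 fold was compared at regions with an IKZF1 peak in all 4 of the 0 h and 1 h libraries. It was ranked as a percentile within each list. At 202 gained regions the mean rank was 54.3 and 51.7 at 0 h and 76.5 and 76.8 at 1 h. At 108 lost regions it was 71.1 and 72.4 at 0 h and 47.8 and 53.8 at 1 h. At 883 kept regions it was 67.0 and 70.5, and then 77.8 and 79.6. The IKZF1 lists were longer at 1 h than at 0 h, and over all 3229 regions with such peaks the rank was 9.65 and 7.15 points higher at 1 h (replicates 1 and 2). The kept regions, at 10.8 and 9.08 points, thus lay near the level of all regions, while gained regions changed by 22.2 and 25.2 points and lost regions by -23.3 and -18.6. Each exact p was 0.333, the smallest possible (0.4 after Benjamini-Hochberg adjustment over the 6 comparisons of 2 targets and 3 classes), and these tests do not take the change over all regions into account. At lost regions the mean change in rank was -26.5 over 81 distal regions, beside 5.00 over all distal regions, and -4.23 over 27 at promoters, beside 12.03 over all promoter regions.

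H3K27ac was present nearly everywhere, and few regions changed their call. Both 1 h lists covered 91.9% of gained regions (89.5 to 93.7), 96.2% of kept (94.97 to 97.11) and 85.1% of lost (80.1 to 89.0), and both 0 h lists covered 90.0%, 96.8% and 96.0%. Over all regions both lists covered 85.2% at 1 h and 87.5% at 0 h, so the lost share lay near that of all regions at 1 h and above it at 0 h. The order of gained and kept turned round with lists of equal size, with −log10 q of at least 3 and with a 50% coverage rule. A peak in both 0 h lists and neither 1 h list was found at 11 lost regions (4.44%, 2.49 to 7.77), at 1 gained region (0.156%) and at 2 kept regions (0.159%), beside 1.16% of all regions. A new H3K27ac call was found at 7 gained regions (1.10%), at 0 of 248 lost regions (upper Wilson bound 1.53%) and at 0.546% of all regions.

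The H3K27ac fold rank, at regions with a peak in all 4 H3K27ac lists of 0 h and 1 h, went down at lost regions in both replicates. At 210 lost regions the mean rank was 74.8 and 70.7 at 0 h and 63.6 and 57.6 at 1 h. At 565 gained regions it was 74.97 and 69.10 at 0 h and 78.6 and 76.2 at 1 h, and at 1204 kept regions 84.8 and 81.1, then 83.0 and 80.2. The exact p was 0.333 for gained and for lost regions (adjusted 0.4) and 0.667 for kept regions (adjusted 0.667), so no class could pass a threshold. In the gained class the change in rank within replicates 1 and 2 was 6.08 and 9.79 over 142 regions with a new IKZF1 call, and 1.40 and 3.48 over 204 regions with IKZF1 already in both 0 h lists. The same order was seen over all regions, at 3.65 and 5.93 with a new IKZF1 call and -3.66 and -3.78 with IKZF1 already there, and in kept regions, at 2.11 and 6.88 against -3.30 and -2.75. Over all 8066 regions with H3K27ac peaks in the 4 lists, whatever their IKZF1 state, the change was -0.437 and -0.104.

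**Figure D3:**
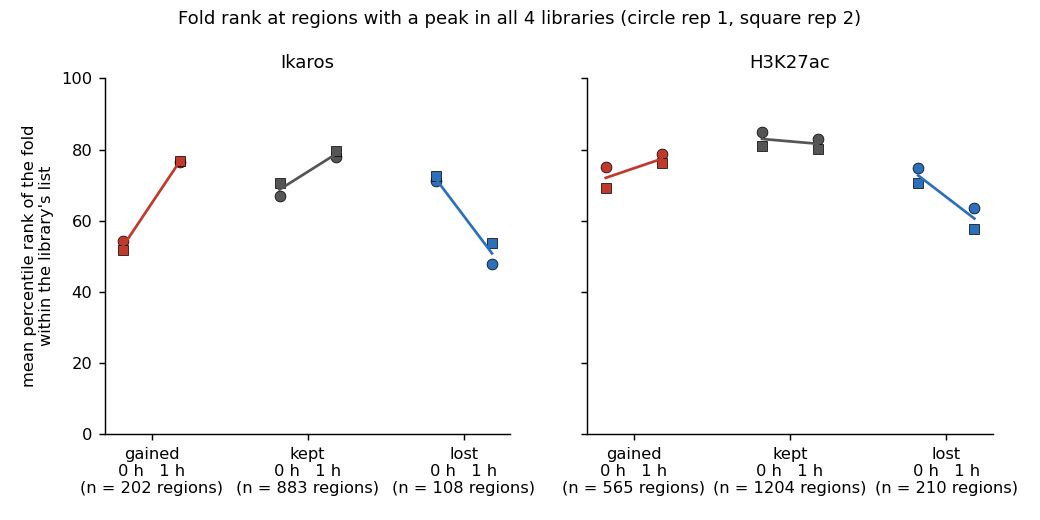
Mean percentile rank of the fold within each library's list (y axis, 0 to 100) for IKZF1 (Ikaros, left) and H3K27ac (right) at gained, kept and lost CHD4 regions with a peak in all 4 libraries of that target, at 0 h and 1 h. Circles and squares are replicates 1 and 2 and lines join their means. For IKZF1, gained regions go from 54.3 and 51.7 to 76.5 and 76.8 and lost regions from 71.1 and 72.4 to 47.8 and 53.8.

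CHD4 itself was mapped at 30 min and 2 h in libraries that the rule did not use. At least 1 of the 2 libraries at 2 h called 84.5% of gained regions (81.5 to 87.1), 49.2% of lost regions (43.0 to 55.4), 97.3% of kept regions (96.2 to 98.1) and 68.0% of all regions. The gained share was close to the 81.0% (77.8 to 83.9) of regions in 0 h replicate 2 and 1 h replicate 1 only and to the 77.5% (73.6 to 81.0) of those in both replicate 2 libraries only. The 2 h libraries differed widely in length, with 5523 and 9593 peaks, and called 40.2% and 77.8% of gained, 15.3% and 45.2% of lost and 74.6% and 95.7% of kept regions. At 30 min they called 36.3% and 28.3% of gained, 28.6% and 20.6% of lost and 84.6% and 78.1% of kept regions, beside 34.4% and 29.3% of all 9702. Gained regions thus lay near the level of all regions at 30 min and above it in both libraries at 2 h (33.2% and 62.6% of all regions).

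**Figure D4:**
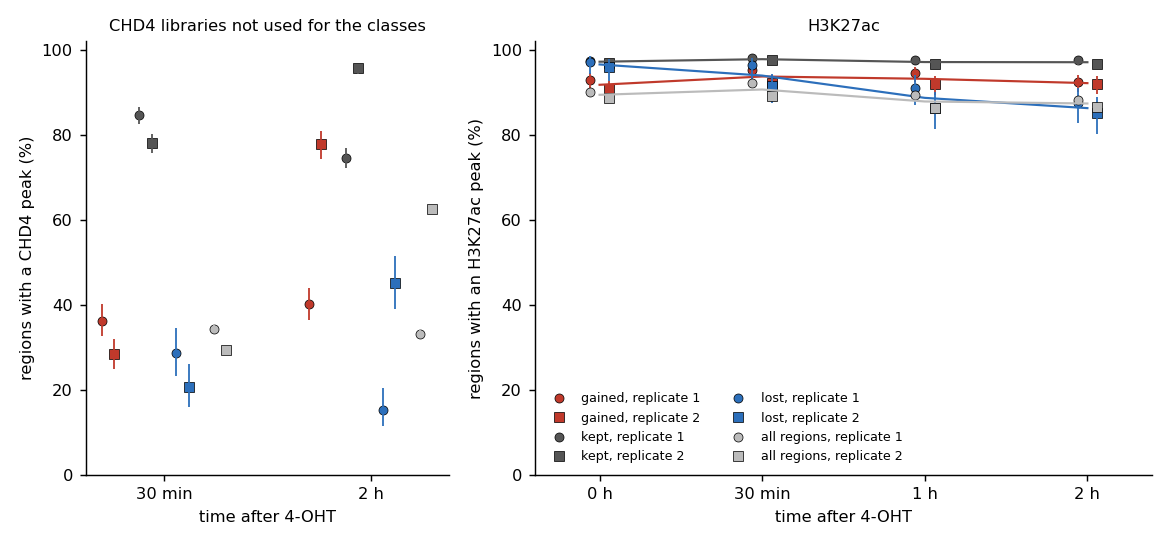
Share of CHD4 regions with a CHD4 peak in the 30 min and 2 h libraries (left, %) and with an H3K27ac peak at each time (right, %). Circles and squares are replicates 1 and 2, bars Wilson 95% intervals over regions, and colours the classes. At 2 h the lost regions lie lowest in both CHD4 replicates (15.3% and 45.2%), and H3K27ac at lost regions goes from 97.2% and 96.0% at 0 h to 87.5% and 85.1% at 2 h.

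Gained regions lay at promoters more often than kept or lost ones. Within 1 kb of an annotated start site lay 344 of 639 gained regions (53.8%, 49.96 to 57.67), against 33.9% of kept (31.3 to 36.6), 27.4% of lost (22.2 to 33.3) and 43.7% of all regions (42.7 to 44.7). The median distance to a start site was 546 bp for gained, 3666 bp for kept and 5503 bp for lost regions. The same order was seen in regions called in a single library, which belong to none of the 3 classes. Promoters made up 58.1% and 51.0% of those called only in 1 h replicate 1 or 2, and 31.8% and 35.8% of those called only in 0 h replicate 1 or 2. New IKZF1 calls made up 17.3% and 18.9% of the former and 10.2% and 8.11% of the latter. The gained share was above the kept share by 6.01 to 20.3 points in all 9 alternatives tried.

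The place of a gained region went with its IKZF1 state. Promoters made up 64.2% (57.5 to 70.3) of the 212 gained regions with IKZF1 in both 0 h lists and 47.6% (40.1 to 55.2) of the 166 with a new IKZF1 call, beside 45.4% and 47.5% over all regions. New IKZF1 calls fell on 29.5% of 295 distal gained regions (24.6 to 34.9) and on 23.0% of 344 at promoters (18.8 to 27.7), and the intervals overlap. Over all regions the order was the reverse, at 12.8% of 5463 distal and 14.96% of 4239 promoter regions, and in kept regions the shares were 8.06% and 6.57%. The centre of a gained region was intronic in 41.8%, exonic in 19.7% and intergenic in 38.5% of cases. For lost regions the shares were 53.6%, 13.7% and 32.7%, for kept regions 44.8%, 10.2% and 45.03%, and for all regions 45.03%, 15.3% and 39.7%. The intronic and intergenic shares of gained regions thus lay near those of all regions.

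Gained and lost regions were narrower than kept ones. The median width was 909 bp for gained (quartiles 642 to 1309), 907 bp for lost (644 to 1244) and 2007 bp for kept regions (1416 to 2887). Width comes from the CHD4 calls that the rule used, and it went with the number of libraries that called a region. The median was 723 to 1017 bp in the other classes called in 2 libraries and 1112 to 1470 bp in those called in 3, so the narrow width was not particular to gained and lost regions. The CHD4 fold of the members is likewise given as a description. Gained regions held median fold ranks of 46.3 and 48.3 within the 1 h lists, near the middle, with median folds of 3.52 and 3.46. Lost regions held 48.9 and 55.4 within the 0 h lists, and kept regions 57.1 and 68.9 at 0 h and 67.7 and 61.3 at 1 h. CpG dinucleotides occurred at a median of 2.07 per 100 bp in gained, 1.48 in kept and 1.29 in lost regions, while the GC content was alike, at 49.5%, 49.1% and 50.3%.

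**Figure D5:**
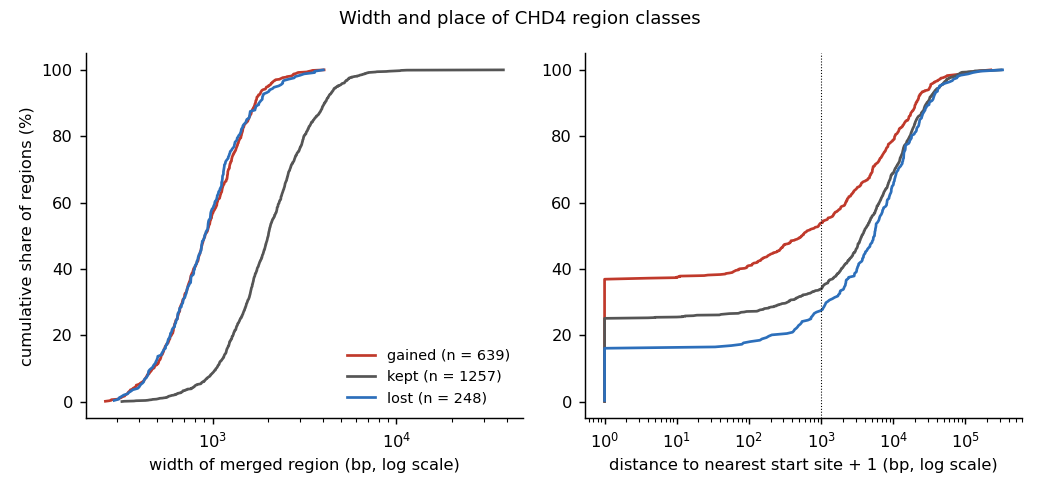
Cumulative share of gained, kept and lost CHD4 regions (y axis, %) by width (left, bp, log scale) and by distance to the nearest annotated start site plus 1 (right, bp, log scale, dotted line at the 1 kb promoter limit). The width curves of gained and lost regions (medians 909 and 907 bp) run together to the left of the kept curve (2007 bp), and the gained curve crosses the promoter limit at 53.8%.

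Core words were counted within 100 bp of the highest IKZF1 summit of 1 h replicate 1. They numbered 3.12 ± 1.46 per 100 bp (SD over 469 gained regions), 3.23 ± 1.36 over 1158 kept and 3.51 ± 1.43 over 144 lost regions, so the mean of gained minus kept regions was -0.11 ± 0.08 (SE over regions, which are not replicates). With the summits of 1 h replicate 2 in place of replicate 1 the difference was -0.0048 ± 0.0787 (SE), so its size moved with the library that gave the summits. Over all 5590 regions with a summit the value was 3.20 ± 1.43. In gained regions with a new IKZF1 call it was 2.71 ± 1.27 (151 regions), and with IKZF1 already in both 0 h lists 3.65 ± 1.59 (193 regions). The same split was seen over all regions, at 2.67 and 3.51, and in kept regions, at 2.44 and 3.40. The longer word TGGGAA or its complement TTCCCA, which includes core words, was found in the window of 21.5% of gained (18.1 to 25.5), 25.7% of kept (23.3 to 28.3), 35.4% of lost (28.1 to 43.5) and 24.2% of all regions. In windows of the same length at the region's centre, which need no IKZF1 peak, the shares were 18.0% of gained (15.2 to 21.2), 25.4% of lost (20.4 to 31.2), 19.0% of kept (16.9 to 21.3) and 18.9% of all regions (18.1 to 19.6).

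The gained region with the highest CHD4 fold ranks, at chr6:100832842-100833653, covers the start site of Ppp4r2, a regulatory subunit of protein phosphatase 4. Its folds were 5.17 and 5.02 at 1 h, and it was called at 30 min in replicate 1 (4.57) and at 2 h in both replicates (3.83 and 4.39). No IKZF1 library had a peak there. The second covers the start of Sde2, a factor in genome maintenance and splicing, with 5.10 and 4.60 at 1 h and calls in both libraries at 30 min and at 2 h. IKZF1 was called there in all 8 libraries, with folds of 8.41 and 16.4 at 0 h and 15.3 and 15.5 at 1 h. Near Chaf1a, the large subunit of the histone chaperone CAF-1, the CHD4 folds at 1 h were 4.46 and 4.51, and IKZF1 folds went from 6.42 and 10.2 at 0 h to 10.5 and 17.6 at 1 h. A further region lay on chromosome 17 far from any gene, with Efna5, an ephrin ligand, the nearest protein-coding start at 633846 bp.

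The other 4 regions of highest rank lay near Rbm14, an RNA-binding protein of paraspeckles (4.32 and 4.45), in an intron near Gsto2, a glutathione transferase (4.23 and 4.54), in an intron near Ppp1r12b, a subunit of myosin phosphatase (4.43 and 4.14), and 22574 bp from Parp1, the poly(ADP-ribose) polymerase of DNA repair (4.66 and 3.99). At Ppp1r12b IKZF1 was called in 1 of 2 libraries at 0 h (3.61) and in both at 1 h (8.01 and 6.81). At Parp1 it was called in 1 h replicate 2 alone (3.71). None of the 8 regions met the rule for a new IKZF1 call, and 6 of them had IKZF1 in at least 1 of the 0 h libraries.

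The lost region of highest rank covers the start of Ell3, a transcription elongation factor, with CHD4 folds of 4.13 and 4.45 at 0 h. It was called again in both 2 h libraries (3.14 and 3.04). Its IKZF1 folds were 6.90 and 6.57 at 0 h and 8.24 and 10.9 at 1 h. Its H3K27ac folds were also larger at 1 h, with 4.59 and 3.99 at 0 h and 6.01 and 5.11 at 1 h. The other 4 lay 5554 to 51944 bp from a protein-coding start, and at each the IKZF1 folds at 1 h lay below both 0 h folds. Near Nedd9, a docking protein of integrin signalling, CHD4 folds at 0 h were 4.10 and 4.91. IKZF1 folds there were 8.19 and 15.9 at 0 h and 3.41 and 4.16 at 1 h, and H3K27ac folds 25.1 and 21.2, then 7.78 and 5.72. Near Frmd6, a FERM domain protein, IKZF1 folds were 7.54 and 13.6, then 4.83 and 4.65, and H3K27ac folds 22.2 and 15.3, then 9.69 and 5.90. At the intergenic region 51944 bp from Tnfrsf8, which encodes CD30, IKZF1 folds of 23.9 and 36.2 at 0 h were followed by 5.11 in replicate 1 and no call in replicate 2 at 1 h. Near Krba1 IKZF1 folds were 16.2 and 18.1, then 3.52 and 7.42. Folds are not scaled between lists. The median H3K27ac fold over whole lists was also smaller at 1 h (6.02 and 5.45) than at 0 h (7.50 and 7.71). The median IKZF1 fold was 4.83 and 4.64 at 1 h against 4.74 and 5.20 at 0 h. The highest IKZF1 fold of a list was 22.2 and 23.5 at 1 h against 43.7 and 45.9 at 0 h, so the top of the IKZF1 lists was lower.

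The kept regions of highest rank were of different kinds. At the start of Rfwd3, a ubiquitin ligase of the DNA damage response, CHD4 folds were 5.14 and 5.20 at 0 h and 6.16 and 5.54 at 1 h. At an intergenic repeat region 45295 bp from Mvb12b, a subunit of the ESCRT-I sorting complex, they were 4.70 and 7.20, then 9.83 and 8.31, with no IKZF1 or H3K27ac peak in any of their 16 libraries. At Hes3, a basic helix-loop-helix repressor, they were 5.79 and 5.76, then 5.95 and 4.72. A region on chromosome X at the predicted gene Gm21887, 78.2% repeat-masked, held 4.59 and 5.95, then 5.53 and 5.56. An exonic region at chr4:139737997-139739947, 84448 bp from the start of Tas1r2, a sweet taste receptor subunit, held 4.67 and 4.41, then 5.62 and 5.05. Whether regions of known artefact were removed from the lists is not stated.

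Kept regions carry a CHD4 fold in each library, and no change in it passed the test. With limma on the log2 fold, centred on each library's median, 0 of 1257 kept regions (0.00%) had a Benjamini-Hochberg adjusted p under 0.05. At an unadjusted p under 0.05 there were 44 higher and 25 lower at 1 h, together 5.49% of those tested. This balance moved with the scaling and with the libraries used, to 64 higher and 17 lower without centring and to 17 higher and 25 lower without 0 h replicate 1. The lowest adjusted p was 0.222. The alternatives, with any 1 library left out among them, also gave 0 calls, with a lowest adjusted p from 0.0613 without centring to 0.980 without 0 h replicate 2 (limma). Kept regions had to pass the caller in all 4 libraries, and regions without a call in some library have no value there and were not tested.

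The kept region with the lowest p lies at the start of Cyth1, a cytohesin that activates ARF GTPases, at chr11:118211059-118213507. Its CHD4 folds were 3.98 and 3.32 at 0 h and 6.04 and 6.06 at 1 h, a log2 difference of 0.70 ± 0.12 (SE, limma adjusted p = 0.222). Its IKZF1 folds were 4.96 and 6.50, then 8.52 and 11.6, and its H3K27ac folds 46.2 and 34.4, then 29.8 and 23.5. Another 3 of those higher at 1 h lay 8582 bp or more from a protein-coding start, with Kcnh5, Cacng4 and Smim15 the nearest genes, log2 differences of 0.66 to 0.68 and adjusted p from 0.222 to 0.627 (limma). Those near Cacng4 and Smim15 had no IKZF1 peak at either time.

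Among the 5 with the lowest p that were lower at 1 h, 2 lay on chromosome Y near predicted genes (Gm21860 and Gm21748). At Gm21748 the IKZF1 folds were 5.30 and 5.34 at 0 h and 4.83 and 7.07 at 1 h, and at Gm21860 8.53 and 3.803, then 3.19 and 4.49. The others lay near Rab31, a small GTPase of vesicle traffic, near Pxn, which encodes the adhesion scaffold paxillin, and on chromosome 4. The last, at chr4:139743135-139745055, lay 87952 bp from the nearest protein-coding start, that of Pax7. At Rab31 the CHD4 folds were 4.27 and 4.44 at 0 h and 3.45 and 3.12 at 1 h (log2 difference -0.44 ± 0.11, SE, limma adjusted p = 0.627), the IKZF1 folds 15.7 and 19.2, then 9.71 and 4.14. At Pxn the CHD4 folds were 4.57 and 4.39, then 3.65 and 3.34 (log2 difference -0.39 ± 0.11, SE, limma adjusted p = 0.627), the IKZF1 folds 18.1 and 14.0, then 6.07 and 6.81, and the H3K27ac folds 32.4 and 21.7, then 12.4 and 12.3. At the chromosome 4 region the CHD4 folds were 5.16 and 4.70 at 0 h and 3.18 and 3.93 at 1 h. Its IKZF1 folds did not move together, with 5.82 and 5.72 at 0 h and 2.73 and 9.37 at 1 h. The kept region given above for Tas1r2 lies close by, and its CHD4 folds were larger at 1 h. IKZF1 folds are not scaled between lists, and the highest of a list was smaller at 1 h, as given above. A lost CHD4 region, with folds of 3.38 and 3.34 at 0 h, lay 6828 bp from a start of Pxn, and there IKZF1 was called in both 0 h libraries and in neither 1 h library.

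Of 21924 protein-coding genes, 795 (3.63%) had a gained region within 20 kb of a start site, 258 (1.18%) a lost region and 1090 (4.97%) a kept region. Among 108 genes on 7 lists of pre-B cell biology the numbers were 10 (9.26%), 8 (7.41%) and 39 (36.1%). The listed genes were chosen for their roles in B cells, so they are not a sample of all genes.

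Of 16 G1 cell cycle genes, 4 had a gained, 0 a lost and 3 a kept region. The 4 with a gained region were Ccnd3, Cdkn1b, Cdkn2d and Rb1, the retinoblastoma protein. Ccnd3 is the D cyclin of pre-B cells, Cdkn1b encodes the CDK inhibitor p27 and Cdkn2d encodes p19 INK4d. In this order the CHD4 folds at 1 h were 3.41 and 3.91, 4.06 and 3.55, 3.03 and 4.75, and 3.32 and 3.46. The regions lay 2394, 6364, 2072 and 51 bp from a start of the gene, and that near Cdkn1b covers another annotated start. The first 3 were called again in both CHD4 libraries at 30 min and at 2 h. IKZF1 was in both 1 h libraries at all 4, in both 0 h libraries at Ccnd3 and Cdkn2d, and in 1 of 2 at Cdkn1b and Rb1. H3K27ac was called at all 4 in both libraries at both times.

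Of the 18 genes of the pre-B cell receptor and its signalling, 1 had a gained, 0 a lost and 11 a kept region. The gained region covers the start of Cd22, an inhibitory co-receptor of B cells, at chr7:30878619-30880107 with CHD4 folds of 3.63 and 3.33. It is the only gained region near a listed gene with a new IKZF1 call, and its sequence is given above. It was called in 1 of 2 libraries at 30 min and in neither at 2 h. Of the 18 B-lineage transcription factors, Irf8, which acts in B and myeloid cells, had both kinds. A gained intronic region lay 4990 bp from its start (3.36 and 3.09 at 1 h), and lost ones lay at 1707 bp (3.63 and 3.19 at 0 h) and 10647 bp (3.44 and 3.17). IKZF1 was called at all 3 in both 0 h libraries.

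Of 18 fast-repressed genes taken from those the study names, 1 had a gained, 3 a lost and 12 a kept region. The list does not hold every such gene, and the study chose them from its own transcripts of these cells. Endod1 had the gained region, at its start (3.01 and 3.44). The lost regions lay near Dntt, which encodes the terminal transferase of V(D)J joining (3.42 and 3.47 at 0 h), Itga5, the fibronectin receptor chain (3.69 and 3.83), and Plekho2 (3.50 and 3.47). IKZF1 was called in both 0 h libraries at the 3 lost regions and in both 1 h libraries at those of Itga5 and Plekho2, but in 1 of 2 at Dntt. The Dntt region was called for CHD4 again in both 2 h libraries. The lost regions lay 6611 bp from a start of Dntt, 14381 bp from Itga5 and 1097 bp from Plekho2.

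Genes of adhesion and migration (16) had 2 gained, 2 lost and 4 kept. The gained regions lay near Itgb7, an integrin chain of lymphocyte homing (2.87 and 3.37), and at the start of Cxcr4, the chemokine receptor that holds B cell precursors in the marrow (3.62 and 3.13), and the lost ones near Itga5 and Pxn. Of 15 genes of the IL-7 receptor and STAT5 pathway, 0 had a gained region, 2 a lost and 4 a kept one. The lost region is shared by the neighbours Stat5a and Stat5b, the transcription factors of IL-7 signalling, and covers the start of Stat5b (3.53 and 3.20 at 0 h). Of 14 genes for NuRD subunits, 1 had a gained, 1 a lost and 1 a kept region. Gatad2a had a gained region 4876 bp from its start (3.33 and 3.21 at 1 h) and Hdac1, the deacetylase, a lost region at its start (3.61 and 3.71 at 0 h).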

How the data were processed

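Read pairs were mapped to mm10 by the authors (Bowtie2 2.4.2), duplicates were marked (Picard 2.23.7) and peaks were called for each library (MACS2 2.2.7.1), broad for CHD4 and narrow for the other targets. The methods cover 0 h, 1 h and 2 h. Settings for 30 min and the input used per library are not given in the sources used here. A blacklist is named for the coverage tracks, and whether it was used on the peak lists is not stated. Cells were fixed with DSG and formaldehyde. The deposited lists give each peak a score (not used), a fold enrichment over the local background (a ratio), and the −log10 of its p-value and q-value. They hold no read counts, so CHD4 depth is unknown, and weaker peaks pass in a deeper library.

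Groups came from the library titles. All peaks lay within GRCm38 chromosomes, coordinates are 1-based mm10, and genes came from GENCODE M21. Overlap needed 1 bp, a promoter lay within 1 kb of any annotated start site, and intervals are Wilson 95% intervals of counting error. A region with several peaks took its highest fold. Kept regions were tested with limma (3.58.1, R 4.3.3) on the log2 fold, which was first tested on simulated data. Numbers per library and mean ranks were compared by exact permutation. Named regions were the 8 gained, 5 lost and 5 kept of highest mean fold rank, the 5 kept of lowest p in each direction, and genes of the 7 lists with a gained or lost region within 20 kb. A kept region among these is not reported here. Members and lists were chosen with earlier results of these data known. The alternatives were other thresholds, coverage, list lengths, merging gaps, windows, centring and left-out replicates. Region windows of 500 bp, classes without X, Y and repeats, and shares newly called for IKZF1 were added after the data were seen.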

Additional observations from a re-analysis of the deposited data

Results flagged for a closer look

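The share of CHD4 regions with an IKZF1 peak moved in opposite directions in the gained and lost classes between 0 h and 1 h, in both replicates. At gained regions it changed by 37.7 points in replicate 1 and 42.1 points in replicate 2, and at lost regions by -11.7 and -11.3 points. Over all merged regions it changed by 21.7 and 20.7 points. It changed by 33.1 and 26.3 points at regions called for CHD4 in both 1 h and 1 of the 0 h libraries. At regions in 0 h replicate 2 and 1 h replicate 1 only it changed by 31.6 and 14.7 points. The changes were 20.7 and 35.4 points for both replicate 1 libraries only, and 27.6 and 26.8 for both replicate 2 libraries only. The difference between the classes was not tested.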

How the results depend on the processing

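Counts of regions moved with the calling, while 3 differences kept their direction in every alternative that gave both values: new IKZF1 calls (gained above kept, 9 of 9), promoters (gained above kept, 9 of 9) and CHD4 calls at 2 h (gained above lost, 10 of 10). Gained outnumbered lost regions in 6 of 8. With a −log10 q of at least 3 there were 149 gained, 33 lost and 86 kept regions. IKZF1 at 1 h was then at 89.3% of gained and 72.1% of kept, newly called at 12.1% and 5.81%, promoters made up 36.2% and 30.2%, H3K27ac was at 74.4% of kept, and the 2 h lists held 99.3% of gained and 75.8% of lost regions. With peaks covering at least 50% of a region, 210 were kept, IKZF1 was at 80.4% of gained and 87.1% of kept, newly called at 21.9% and 5.71%, H3K27ac at 93.8% and 90.5%, and 2 h CHD4 at 89.7% of gained and 60.2% of lost. With lists of equal size there were 299 gained and 528 kept, IKZF1 at 83.9% of gained, newly called at 19.7% of gained and 4.17% of kept, H3K27ac at 94.6% and 93.4%, promoters at 48.5% of gained, 2 h CHD4 at 90.6% of gained and 73.5% of lost, and 350 genes near gained regions. A 50 kb window gave 1462 genes. With a fold of at least 3, IKZF1 was at 93.2% and H3K27ac at 98.0% of kept regions, and without X, Y and repeat regions at 93.0% and 97.2%.

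With a peak in either replicate, IKZF1 was at 91.7% of gained and 96.7% of kept and H3K27ac at 94.5% and 98.1%. With both 2 h libraries required, 33.5% of gained and 11.3% of lost regions were called. A 3 kb promoter distance gave 63.8% and 45.5%. In the central 500 bp, IKZF1 was at 68.7% of gained and 76.9% of kept, newly called at 12.8% of kept, H3K27ac at 93.8% of kept and 2 h CHD4 at 79.0% of gained.

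From 1 replicate alone, gained regions numbered 2094 to 3622, lost 663 to 3057 and kept 1705 to 2836. IKZF1 was at 55.3% to 68.6% of gained and 83.1% to 87.9% of kept, newly called at 18.4% to 20.7% and 8.27% to 12.5%, H3K27ac at 84.7% to 89.0% and 94.9% to 95.2%, promoters at 51.2% to 51.8% and 36.01% to 38.89%, and 2 h CHD4 at 66.7% to 75.7% of gained and 52.8% to 56.9% of lost regions. The cause of these moves was not tested.

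The kept fold gave 0 calls under every alternative, with a lone library assumed to vary like the others where 1 was left out. The replicate numbers did not pair the CHD4 libraries: deviations of same-numbered libraries had a correlation of 0.0067 over 1257 kept regions. With 2 pairs this is only a hint. IKZF1 and H3K27ac libraries were not checked in this way, so changes within their replicates rest on the replicate numbers alone. The replicate block gave 0 calls, with 44 higher and 24 lower at an unadjusted p under 0.05. The lists hold no read counts, so what depth does to a call cannot be told apart from binding.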
